A study of Homo sapiens with 24 samples.

Results

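The transcripts described here encode 10 heat shock proteins of the cytosol and the mitochondrion: HSPA1A, HSPA1B and HSPA6 (inducible HSP70 proteins), HSPA8 (the constitutive HSP70), DNAJB1 and HSPH1 (partners of HSP70), HSPB1 (a small heat shock protein), HSP90AA1 (the inducible cytosolic HSP90), and HSPD1 and HSPE1 (the mitochondrial chaperonin and its lid). They are 10 of the 60609 genes of the deposited table. All 10 passed the filter on low values (TPM, a transcript level per length scaled to a fixed total, of 1 or more in 3 or more libraries), as did 16062 genes in all. The members were chosen by name, with their TPM values across groups and by library number already in view. The split by library number is therefore described with no test. The tests of IFN, siRNA and time below only say whether a difference exceeded the spread between libraries, and are no independent evidence about genes chosen in this way.

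Expression was measured in A549 cells, an established line from a human lung adenocarcinoma. For 48 h they carried a pool of siRNAs, either to BOP1, a ribosome biogenesis factor (siBOP1), or to firefly luciferase as the control (siFLuc), and were then mock-treated or given interferon beta (IFN) at 1000 U/mL for 8 or 12 h. This gave 8 groups of 3 libraries, numbered 1, 2 and 4 in the column names. All groups share the line, the transfection and the medium. BOP1 itself was at 10.0 to 19.5 TPM in the 12 siBOP1 libraries and at 32.4 to 78.8 TPM in the 12 siFLuc libraries, with no overlap. The epithelial keratins KRT8 (2090 to 3800 TPM) and KRT18 (1780 to 2860 TPM) were abundant and KRT19 (62.5 to 161 TPM), CDH1 (23.8 to 105 TPM) and EPCAM (1.92 to 5.48 TPM) were lower. Markers of leukocytes (PTPRC, CD3E), endothelium (PECAM1, CDH5) and fibroblasts (PDGFRB, DCN) and the alveolar type II markers SFTPB and NKX2-1 stayed at or under 0.395 TPM, SFTPC at or under 1.61 TPM and hepatocyte ALB at or under 1.02 TPM, whereas CD68 (38.5 to 402 TPM) and COL1A1 (5.37 to 19.3 TPM) were present. In bulk RNA, fewer expressing cells and less RNA per cell cannot be told apart.

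Heat shock proteins are chaperones that bind unfolded protein and help it fold. HSP70 works in cycles of ATP use that are started by J-domain proteins such as DNAJB1 and reset by exchange factors such as HSPH1, and HSP90 takes over selected clients such as kinases and steroid receptors. Heat, oxidants and misfolded protein release the transcription factor HSF1, which binds heat shock elements, inverted repeats of the unit GAA, in the promoters of these genes. HSPA6 is known as a gene nearly silent in unstressed cells, whereas HSPA8 is made at all times.

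The heat shock element is shown here because it is the sequence these genes are known to share. The choice of members read no sequence, but it was made by name among heat shock genes. An excess of the element over all windows could thus be foreseen and is no independent evidence. RefSeq gives 14 start sites for the 10 genes (GRCh38.p14), each with a window of 250 bases before the start and 50 after. The 250 bases before the start were searched for a pair of units in either order, GAANNTTC or TTCNNGAA, and for 3 units in a row, GAANNTTCNNGAA or TTCNNGAANNTTC, which contain the pairs. Each pair reads the same on the other strand, and each of the triples is the other's reverse complement. A pair was found in 8 of the 14 windows (57.1%), against 11.6% of all 35116 windows, and 3 units in a row in 4 of 14 (28.6%), against 0.441%. By gene, 8 of 10 had a pair in at least 1 window. The share of all genes was not counted, and genes with more start sites had more windows, so this count has no background. No match was found in the windows of HSPH1 and HSPE1. The HSPD1 match lies past the GENCODE 29 start of HSPE1 (chr2:197499994), outside the bases searched for HSPE1. The matches are printed 5′ to 3′ on the gene's strand with the matching units in capitals:
HSPA1A (chr6:31815429-31815452, plus strand): aaaccctgGAATATTCccgacctg
HSPA1B (chr6:31827625-31827648, plus strand): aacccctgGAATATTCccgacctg
HSPA6 (chr1:161524458-161524486, plus strand): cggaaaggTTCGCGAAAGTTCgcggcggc
HSPA6, farther from the start (chr1:161524352-161524375, plus strand): atctgcccGAACCTTCtcccgggg
HSPA8 (chr11:123062171-123062199, minus strand): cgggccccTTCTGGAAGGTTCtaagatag
HSPA8, farther from the start (chr11:123062346-123062374, minus strand): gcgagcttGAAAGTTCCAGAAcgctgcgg
DNAJB1 (chr19:14518459-14518482, minus strand): gcggggcgGAAGGTTCtggagggg
DNAJB1, nearer the start (chr19:14518429-14518452, minus strand): gggctctgGAAGCTTCcgccggac
HSPB1 (chr7:76302483-76302506, plus strand): taacgagaGAAGGTTCcagatgag
HSP90AA1 (chr14:102087104-102087133, minus strand): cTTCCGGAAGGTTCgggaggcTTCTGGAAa
HSPD1 (chr2:197500062-197500090, minus strand): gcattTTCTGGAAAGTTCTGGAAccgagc
HSPA1A and HSPA1B carry the same 8-base pair, 106 and 105 bases before their starts. The HSPD1 match holds overlapping triples. A match is a description of letters, not evidence of a bound factor.

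The members differed widely in level. On the TPM scale, which is per length, HSPA8 was the most abundant in the median over 24 libraries (2635 TPM), followed by HSP90AA1 (1743 TPM), HSPB1 (1028 TPM), HSPE1 (758 TPM), HSPD1 (752 TPM) and HSPA1A (666 TPM). Then came HSPA1B (371 TPM), HSPH1 (147 TPM), DNAJB1 (139.8 TPM) and, far below, HSPA6 (0.871 TPM). The ranges of each pair of neighbours in that order overlapped, except that without the library described next HSPA6 (at most 9.15 TPM) lay below DNAJB1 (at least 61.4 TPM) in every library. The summed level of the 10 genes was 0.822% to 1.06% of all TPM in the 8 h libraries, and 0.538% to 0.661% in 11 of the 12 libraries at 12 h. The exception was the siFLuc mock 12 h library numbered 4, at 1.30%.

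**Figure D1:**
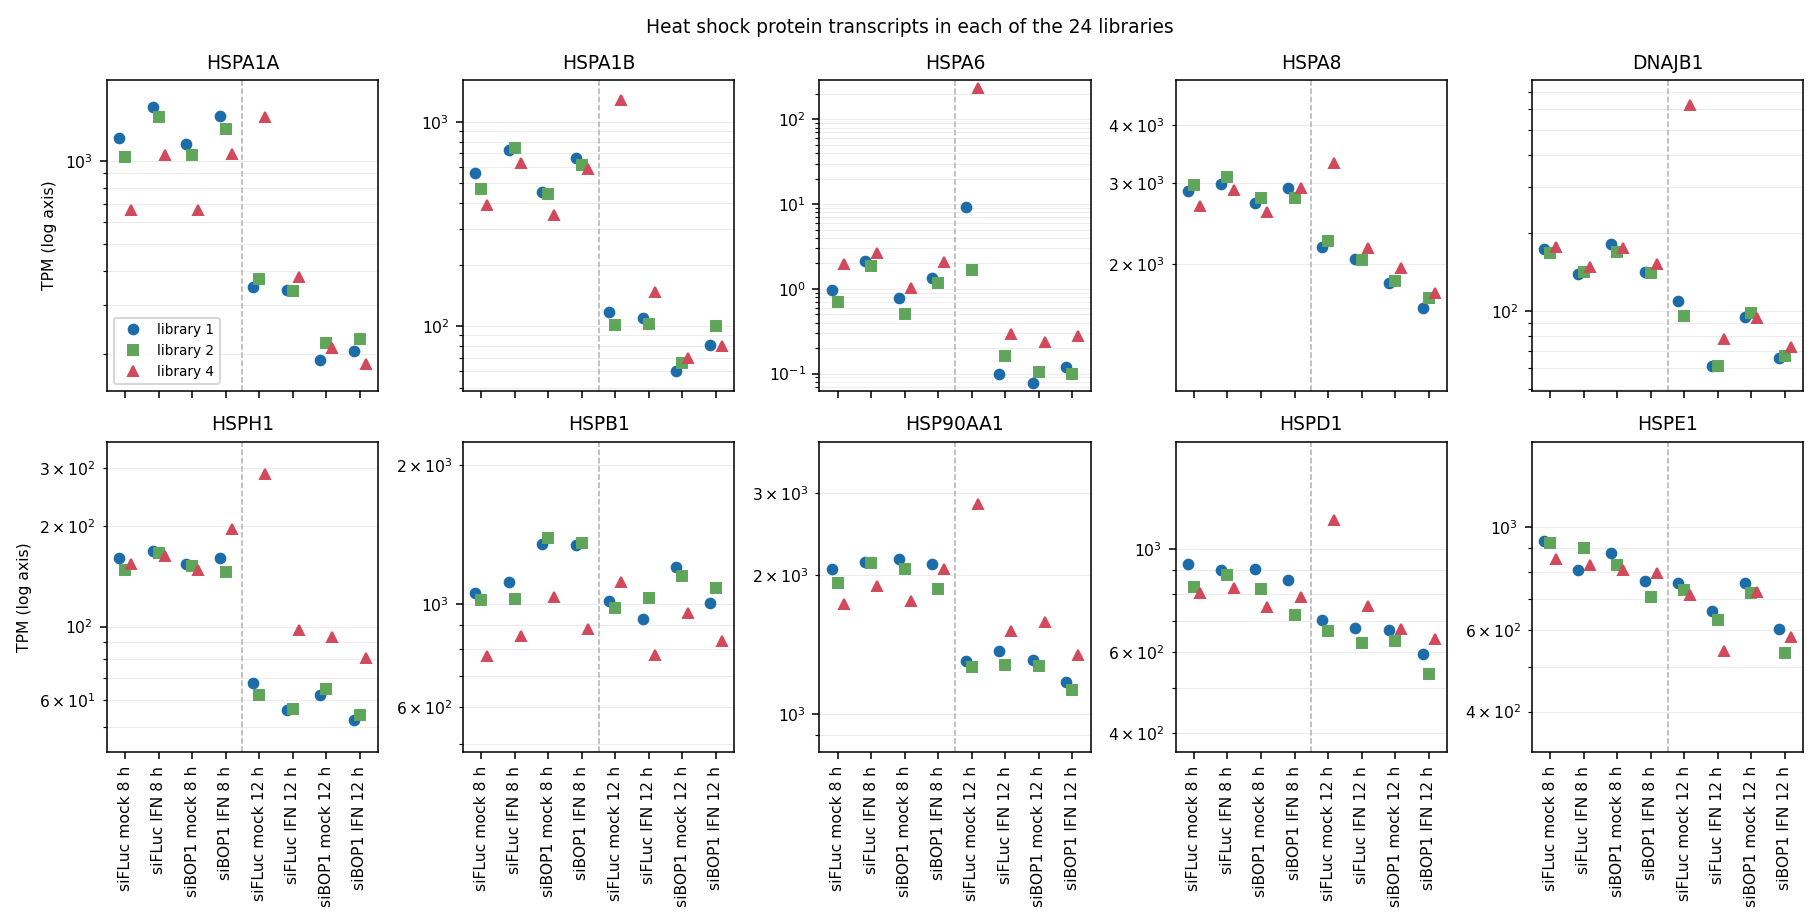
Each panel plots 1 gene's TPM on a log axis in the 8 groups, 1 point per library, with libraries 1, 2 and 4 as circles, squares and triangles and the dashed line between 8 h and 12 h. The triangle of siFLuc mock at 12 h lies far above the others for HSPA6 (231 TPM), HSPA1B (1277 TPM) and DNAJB1 (620 TPM), and most genes lie lower at 12 h than at 8 h.

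That library stood apart and has to be described before any comparison. HSPA6 was at 9.15 and 1.68 TPM in the siFLuc mock 12 h libraries 1 and 2 and at 231 TPM in library 4, whereas the other 21 libraries ranged from 0.078 to 2.63 TPM. HSPA1B was at 117, 101 and 1277 TPM in the same 3 libraries, and HSPA1A at 348, 375 and 1445 TPM. Library 4 thus had the highest HSPA6 and HSPA1B values of the whole series, and for HSPA1A a value inside the range of the 8 h libraries (665 to 1566 TPM).

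The HSP70 partners followed. DNAJB1, the J-domain protein that loads clients onto HSP70, was at 109, 95.4 and 620 TPM. HSPH1, an HSP110 exchange factor, was at 67.6, 62.3 and 287 TPM. HSP90AA1 was at 1300, 1262 and 2847 TPM, HSPA8 at 2183, 2240 and 3308 TPM, and HSPD1 at 702, 664 and 1156 TPM. For each of these 5 genes library 4 held the highest value of all 24 libraries.

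HSPE1 and HSPB1 did not take part to a like extent. HSPE1, which shares a divergent promoter region with HSPD1, was at 759, 731 and 713 TPM, so that library 4 was the lowest of the 3. HSPB1, an ATP-independent holdase, was at 1015, 979 and 1114 TPM, within the range of the series.

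Counted by 2-fold steps of TPM + 1, 6 of the 10 members were at least 2-fold above both other libraries of their group: HSPA1A, HSPA1B, HSPA6, DNAJB1, HSPH1 and HSP90AA1. Over all genes tested the share was 3.06%, or 492 genes. In the other 7 groups, 0 members were 2-fold above or below both other libraries. Over all genes tested the shares there were 0.392% to 1.86% above and 0.28% to 0.741% below, so this 0 is no result about the members. The other genes of the pathway were unequal in the same library. Of 12 non-chaperone genes known as HSF1 targets, 7 were at least 2-fold above both, including ATF3 (2.67, 3.26 and 48.1 TPM) and GADD45B (10.6, 10.7 and 64.1 TPM). These 2 had the largest excess of that list. CLU, UBB, ZFAND2A and MRPL18 of the same list were above both by less than 2-fold (log2 0.71, 0.67, 0.52 and 0.34). HMOX1 went the other way, at 244, 223.5 and 135 TPM. Of 28 further cytosolic HSP70, HSP110, HSP40 and cofactor genes tested, 6 were at least 2-fold above both, led by BAG3 (50.9, 47.2 and 224 TPM), a cofactor that links HSP70 to autophagy. Of 17 HSP90 cofactors 1 was, CHORDC1 (43.7, 44.9 and 161 TPM), and of 12 chaperones of the endoplasmic reticulum 1 was, DNAJB9. None of the 14 TRiC and prefoldin genes, the 17 other mitochondrial chaperones and proteases or the 5 heat shock factors and regulators was 2-fold above both. HSF4, a heat shock factor, was more than 2-fold below both, at 23.1, 11.3 and 3.83 TPM. HSF1 mRNA was at 50.6, 46.7 and 75.1 TPM and HSF2 at 9.48, 8.70 and 14.5 TPM.

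The list genes named for this library, and the genes outside the lists, were picked out after their values were seen. Among genes with a mean of at least 5 TPM, the largest excess of that library over both others was in 2 small nuclear RNA rows listed at 0 in both, then in HSPA6, followed by the immediate early genes FOS (9.43, 4.59 and 221 TPM) and EGR1 (6.24, 1.41 and 148 TPM) and the stress response gene PPP1R15A (38.9, 26.9 and 496 TPM). The same library had 6.86% of its TPM on mitochondrially encoded genes, against 10.9% to 15.9% in the other 23. The part of these differences in the heat shock values was not tested.

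**Figure D2:**
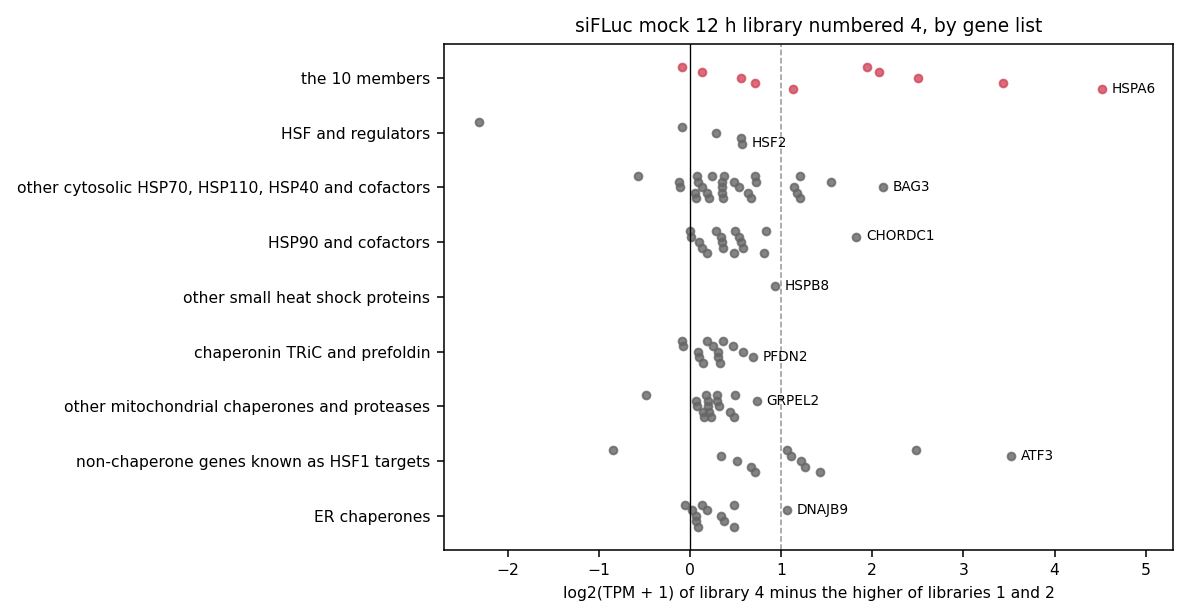
Each point is 1 gene, placed by log2(TPM + 1) in the siFLuc mock 12 h library 4 minus the higher of libraries 1 and 2, with genes in rows by list and the dashed line at 2-fold. The members reach 4.52 (HSPA6), non-chaperone HSF1 targets reach 3.53 (ATF3), and the TRiC and prefoldin genes stay under 1.

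The libraries numbered 4 also differed in other groups, by smaller amounts and in directions that depended on the gene and the time. At 8 h, library 4 was the lowest of the 3 in all 4 groups for HSPA1A, with log2 differences from the mean of libraries 1 and 2 between -0.75 and -0.38, for HSPA1B (-0.39 to -0.12) and for HSPB1 (-0.60 to -0.33). At 12 h, leaving out siFLuc mock, library 4 was the highest of the 3 in all 3 groups for HSPH1 (0.55 to 0.79), HSP90AA1 (0.19 to 0.30), HSPA8 (0.07 to 0.10), HSPD1 (0.05 to 0.22) and HSPA6 (0.18 to 0.20). HSPA6 was also the highest in all 4 groups at 8 h (0.27 to 0.69). Its values in these groups were near the floor, at 0.506 to 2.63 TPM at 8 h and 0.078 to 0.297 TPM at 12 h. HSPB1 was again the lowest in all 3 (-0.33 to -0.29). This split was in view when the genes were chosen, and no test was made.

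**Figure D3:**
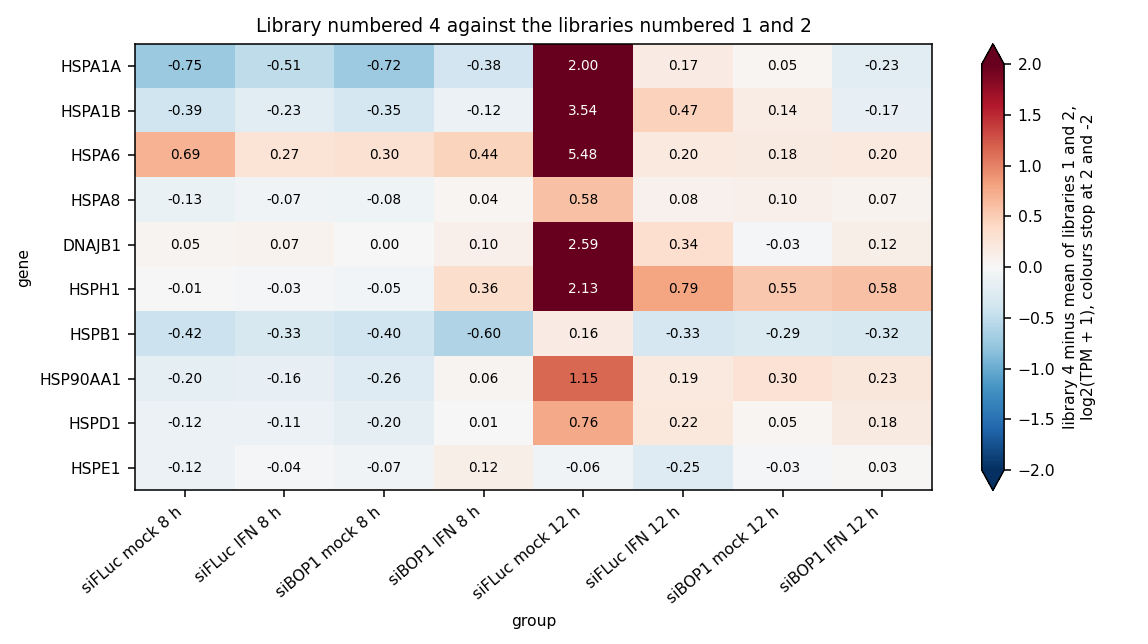
The heat map gives, for each gene (rows) and group (columns), log2(TPM + 1) in library 4 minus the mean of libraries 1 and 2, with the value printed in each cell. The siFLuc mock 12 h column reaches 5.48 for HSPA6 and 3.54 for HSPA1B, while HSPB1 is negative in the other 7 columns.

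The ratio of the near-identical HSPA1A and HSPA1B differed between libraries. HSPA1A over HSPA1B was 1.68 to 2.55 at 8 h (12 libraries, summed level 1018 to 2293 TPM), 2.26 to 3.70 at 12 h (11 libraries, 250 to 527 TPM) and 1.13 in the siFLuc mock 12 h library 4 (2721 TPM). At 8 h the lower sum of library 4 did not go with a higher ratio. Library 4 had both the lowest sum and the lowest ratio in all 4 groups at 8 h (siFLuc mock: 1775, 1500.0 and 1055 TPM with ratios of 2.15, 2.21 and 1.71). How reads shared by both copies were assigned is not given in the sources used here, so the split between them is uncertain and the sum is the firmer value. Summed pseudogene rows reached at most 2.05% of HSPE1, 0.605% of HSPD1, 0.62% of HSP90AA1 and 0.222% of HSPA8 in any library.

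Because all groups share one estimate of the spread, this library widened it for every comparison. Without it, the residual SD as moderated by limma across genes, on the log2(TPM + 1) scale, went from 0.66 to 0.18 for HSPA1B, from 0.48 to 0.10 for DNAJB1 and from 1.06 to 0.39 for HSPA6, while for HSPE1 it stayed at 0.09. The IFN, siRNA and time results of the members are therefore given from all 24 libraries and from the 23 without it. Fitted results of the other gene lists are from all 24 libraries alone, and so are the interactions except where stated. Their sizes in comparisons that use siFLuc mock at 12 h therefore include that library. Log2 fold changes are of TPM + 1, given ± SE, from limma with Benjamini-Hochberg adjustment over all genes tested, and a gene is called at an adjusted p under 0.05.

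The clearest feature of the remaining libraries was time. Leaving out the siFLuc mock 12 h library 4, all 11 libraries at 12 h lay below all 12 at 8 h for 6 members, against 0.138% of all genes tested. HSPA1B was at 352 to 746 TPM (median 575) at 8 h and at 60.2 to 147 TPM (median 100.2) at 12 h. HSPA1A was at 665 to 1566 TPM (median 1106) and at 183 to 380 TPM (median 227). These inducible HSP70 transcripts showed the widest gap of the 6.

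The other 4 without overlap had smaller gaps. DNAJB1 was at 139 to 181 TPM at 8 h and 61.4 to 109 TPM at 12 h. HSPH1 was at 146 to 196 and 52.4 to 98.0 TPM, HSP90AA1 at 1728 to 2159 and 1126 to 1582 TPM, and HSPA8 at 2596 to 3088 and 1608 to 2240 TPM. HSPD1 (719 to 929 and 537 to 754 TPM) and HSPE1 (706 to 935 and 534 to 759 TPM) overlapped slightly. HSPB1 had nearly the same range at both times (774 to 1386 and 777 to 1203 TPM).

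With all 24 libraries, in siBOP1 cells under IFN 6 of 10 members were lower at 12 h, against 0.511% of all genes called lower. HSPA1A changed by -2.62 ± 0.36 (SE, adjusted p 0.000471, limma), HSPA1B by -2.82 ± 0.54 and HSPA8 by -0.78 ± 0.10. HSPH1 (-1.43 ± 0.37), HSP90AA1 (-0.73 ± 0.20) and HSPE1 (-0.40 ± 0.08) were the other 3. Leaving out 1 of the 6 libraries lowered the count to between 3 and 5: HSP90AA1 was lost in each case, HSPH1 in all but 1, and the count of 3 came without siBOP1 IFN 12 h library 2, where HSPE1 was lost too. In siFLuc cells under IFN 4 members were lower (0.697% of all genes): HSPA1B by -2.55 ± 0.54, HSPA1A by -1.92 ± 0.36, HSPA8 by -0.52 ± 0.10 and HSPE1 by -0.47 ± 0.08. In siBOP1 mock cells 3 were lower (0.0934% of all genes), HSPA1B by -2.65 ± 0.54, HSPA1A by -2.17 ± 0.36 and HSPA8 by -0.52 ± 0.10. Leaving out any 1 of the 6 siBOP1 mock libraries lowered this count to 0 or 1. In siFLuc mock cells, whose 12 h group holds the library that stood apart, 0 of 10 were called by limma (0.0125% of all genes), with 2 members at an unadjusted p under 0.05.

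Without that library the counts were 8 of 10 (siBOP1 IFN, 0.775% of all genes lower), 9 (siFLuc IFN, 1.08%), 6 (siBOP1 mock, 0.263%) and 6 (siFLuc mock, 0.125%), all lower. In siFLuc mock cells HSPA1B then changed by -2.09 ± 0.16 (adjusted p 7.38e-07, limma), HSPA1A by -1.38 ± 0.23, HSPH1 by -1.24 ± 0.21, DNAJB1 by -0.75 ± 0.09, HSP90AA1 by -0.57 ± 0.11 and HSPA8 by -0.36 ± 0.06. DNAJB1, called in none of the 4 with 24 libraries, was called in all 4 in this fit, from -0.75 in siFLuc mock to -1.09 ± 0.08 in siFLuc IFN cells. HSPD1 was called under IFN with both siRNAs (-0.35 ± 0.09 and -0.42 ± 0.09). HSPB1 was called in none of the 4 (0.08 to -0.28).

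HSPA6 in siFLuc mock cells was at 0.961, 0.70 and 1.95 TPM at 8 h and 9.15, 1.68 and 231 TPM at 12 h, groups that overlapped. The difference was 3.11 ± 0.87 (adjusted p 0.135, limma) and was 1.28 ± 0.36 (adjusted p 0.139, limma) without library 4. In the other 3 groups it was at 0.506 to 2.63 TPM at 8 h and at 0.078 to 0.297 TPM at 12 h, levels so low that the added 1 TPM compresses any change. Mock-treated cells differed between the times as well, and whether the 8 h and 12 h cells were plated together is not given, so time and any difference between harvests cannot be told apart.

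The median over the 10 members was -0.92 (siBOP1 IFN), -0.83 (siFLuc IFN), -0.58 (siBOP1 mock) and -0.17 (siFLuc mock, -0.46 without the library), with medians over all genes between 0.03 and 0.09 in the fit of 24 libraries. Among HSP90 cofactors, STIP1, which bridges HSP70 and HSP90, fell in siBOP1 IFN (-0.84 ± 0.11), siFLuc IFN (-0.58 ± 0.11) and siBOP1 mock cells (-0.56 ± 0.11), and HSP90AB1, the constitutive HSP90, fell in siBOP1 IFN cells (-0.48 ± 0.11). Of the 17 genes of that list 4 fell in siBOP1 IFN, 3 in siFLuc IFN and 1 in siBOP1 mock cells, against 0.511%, 0.697% and 0.0934% of all genes. Of 28 further HSP70 partners 3 fell from 8 h to 12 h in IFN-treated cells with either siRNA, DNAJA1 by -0.81 ± 0.20 (siFLuc) and -0.89 ± 0.20 (siBOP1). TRiC subunits fell between the times in IFN-treated cells, 3 of 14 genes with siFLuc and 5 with siBOP1, with TCP1 at -0.48 ± 0.12 and -0.50 ± 0.12. HSPB8, the 1 other small heat shock protein tested, fell in siFLuc IFN cells (-0.78 ± 0.19). Of the remaining lists, CALR of the endoplasmic reticulum rose from 8 h to 12 h in IFN-treated cells (0.30 ± 0.07 and 0.27 ± 0.07, siFLuc and siBOP1). CLPX of the mitochondrion rose (0.52 ± 0.13) and MRPL18 fell (-0.55 ± 0.13) between the times in siBOP1 IFN cells. HSF1, HSF2, HSPA5 and HSPA9 were not called in any of the 4.

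**Figure D4:**
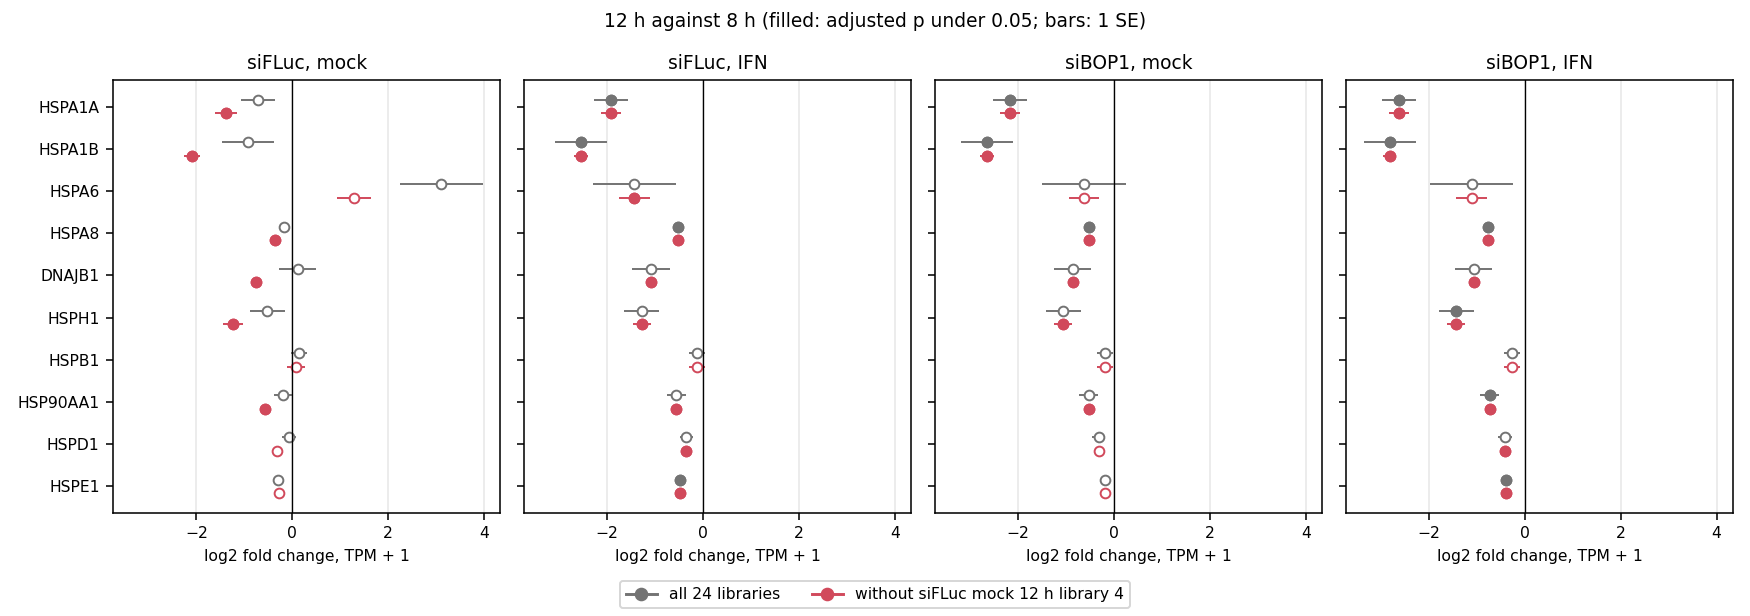
For each gene, the log2 fold change of 12 h against 8 h is plotted with 1 SE in the 4 combinations of siRNA and treatment, grey for all 24 libraries and red without the siFLuc mock 12 h library 4, filled where the adjusted p was under 0.05. HSPA1A and HSPA1B are negative in all panels, from -0.71 and -0.91 in grey in siFLuc mock cells to -2.62 and -2.82 in siBOP1 IFN cells.

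At 8 h no member was called for IFN with all 24 libraries, and HSPA1B (higher) and DNAJB1 (lower) were called, by amounts under 2-fold, in the fit without the siFLuc mock 12 h library 4. HSPA1B was at 563, 467 and 390 TPM in siFLuc mock and 727, 746 and 626 TPM in siFLuc IFN cells (libraries 1, 2 and 4), and at 452, 445 and 352 against 663, 611 and 587 TPM in siBOP1 cells. The groups did not overlap with either siRNA. For IFN and siRNA comparisons the share of all genes without overlap was not counted, here and below. HSPA1A was at 1212, 1033 and 665 TPM against 1566, 1441 and 1051 TPM (siFLuc), and at 1152, 1051 and 666 against 1458, 1306 and 1060 TPM (siBOP1). Its groups overlapped, but the IFN library was higher at each of the 3 numbers with both siRNAs. DNAJB1 was at 173, 168 and 177 TPM in mock and 139, 142 and 148 TPM in IFN cells with siFLuc, and at 181, 169 and 175 against 141, 140.5 and 152 TPM with siBOP1, with no overlap.

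With all 24 libraries 0 of 10 members were called by limma at 8 h in siFLuc cells (10.8% of all genes) or siBOP1 cells (15.1%), and 0 had an unadjusted p under 0.05. Without the siFLuc mock 12 h library 4, 2 of 10 were called in siFLuc cells (12.4% of all genes) and 2 in siBOP1 cells (17.1%), shares near the background. HSPA1B rose by 0.57 ± 0.14 (siFLuc, adjusted p 0.0101, limma) and 0.58 ± 0.14 (siBOP1, adjusted p 0.0071, limma), and DNAJB1 fell by 0.27 ± 0.08 and 0.28 ± 0.08. With the library number also as a block, HSPA1A was called too (0.50 ± 0.08 and 0.44 ± 0.08), in fits that called 23.5% and 31.6% of all genes. HSPA8, HSPH1, HSPB1, HSP90AA1, HSPD1 and HSPE1 had differences between -0.15 and 0.13 and none was called, nor was HSPA6 (0.58 and 0.52).

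At 12 h the IFN comparison in siFLuc cells rests on the group with the library that stood apart. HSPA6 was at 0.099, 0.162 and 0.297 TPM under IFN, below all 3 mock libraries (9.15, 1.68 and 231 TPM). DNAJB1 was at 61.4, 61.4 and 77.8 TPM against 109, 95.4 and 620 TPM. HSPE1 was at 660, 631 and 541 TPM against 759, 731 and 713 TPM. None of the 3 genes overlapped between groups, and how many of all genes separated likewise was not counted.

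With all 24 libraries 3 of 10 members were called, all lower (13.5% of all genes in either direction): HSPA6 by -3.97 ± 0.87, DNAJB1 by -1.47 ± 0.39 and HSPE1 by -0.27 ± 0.08. Leaving out any 1 of the 3 IFN libraries lowered the count to 2, and leaving out mock library 2 raised it to 5. Without the library the same 3 were called (13.8% of all genes), and the sizes fell for HSPA6 (-2.14 ± 0.36) and DNAJB1 (-0.61 ± 0.09) and stayed for HSPE1 (-0.29 ± 0.08). The mock side of HSPA6 was then libraries 1 and 2, which differed (9.15 and 1.68 TPM), while its SE came from the spread shared by all groups. The block on library number added HSPA8 (-0.28 ± 0.08) and HSPH1 (-0.65 ± 0.23) with all 24 libraries (26.9% of all genes), and neither was called without the library that stood apart.

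In siBOP1 cells at 12 h, HSPE1 was at 756, 720 and 724 TPM in mock and 602, 534 and 579 TPM in IFN cells, and DNAJB1 at 94.9, 98.0 and 94.2 against 65.8, 67.0 and 72.3 TPM. Neither overlapped. HSPE1 fell by 0.36 ± 0.08 and was the 1 member called of 10 with all libraries (14.8% of all genes). Without the siFLuc mock 12 h library 4, DNAJB1 was also called (-0.48 ± 0.08), 2 of 10 against 16.7% of all genes. With the block in addition 8 of 10 were called, in a fit that called 30.3% of all genes, HSPA1B upward (0.41 ± 0.11) and 7 downward, by amounts from -0.16 (HSPA8, HSPD1) to -0.48 (DNAJB1). The median over the members was 0.09 and 0.05 at 8 h (siFLuc and siBOP1) and -0.46 and -0.17 at 12 h, the -0.46 being -0.06 without the library, beside medians over all genes between -0.14 and -0.06.

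DNAJA1, another J-domain partner of HSP70, went the other way from DNAJB1 and rose with IFN in all 4 comparisons (0.80 ± 0.20 and 0.77 ± 0.20 at 8 h, 0.61 ± 0.20 and 0.79 ± 0.20 at 12 h, siFLuc and siBOP1). The siFLuc sizes at 12 h in this paragraph include the library that stood apart. DNAJA1 was at 203, 203 and 470 TPM in siFLuc mock 12 h libraries 1, 2 and 4. HSPA2, an HSP70 known from the testis, fell in all 4 (-0.77 to -1.10), and HSPB8 fell in 3 of 4 (-0.61 to -0.79). Of 12 chaperones of the endoplasmic reticulum 0 were called by limma at 8 h (10.8% and 15.1% of all genes in either direction). At 12 h 5 rose with each siRNA (7.06% and 7.17% of all genes higher), HSPA5 by 0.56 ± 0.14 and 0.51 ± 0.14 and HSP90B1 by 0.33 ± 0.07 and 0.26 ± 0.07. Of 14 TRiC and prefoldin genes 4 fell at 12 h with each siRNA (6.4% and 7.6% of all genes lower), TCP1 by -0.54 ± 0.12 and -0.50 ± 0.12. In siFLuc mock 12 h libraries 1, 2 and 4 TCP1 was at 209, 199 and 312 TPM. Of 12 non-chaperone HSF1 targets, HMOX1 rose at 8 h (0.93 ± 0.25 and 0.89 ± 0.25), and IER2 rose in siBOP1 cells (1.01 ± 0.29). UNC45A (-0.35 ± 0.11, siBOP1, 8 h) and PPID (-0.73 ± 0.18, siBOP1, 12 h) among the HSP90 cofactors fell, and HSCB among the mitochondrial chaperones rose (0.65 ± 0.19, siFLuc, 12 h). HSF1, HSF2, HSP90AB1 and HSPA9 were not called in any IFN comparison with 24 libraries.

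**Figure D5:**
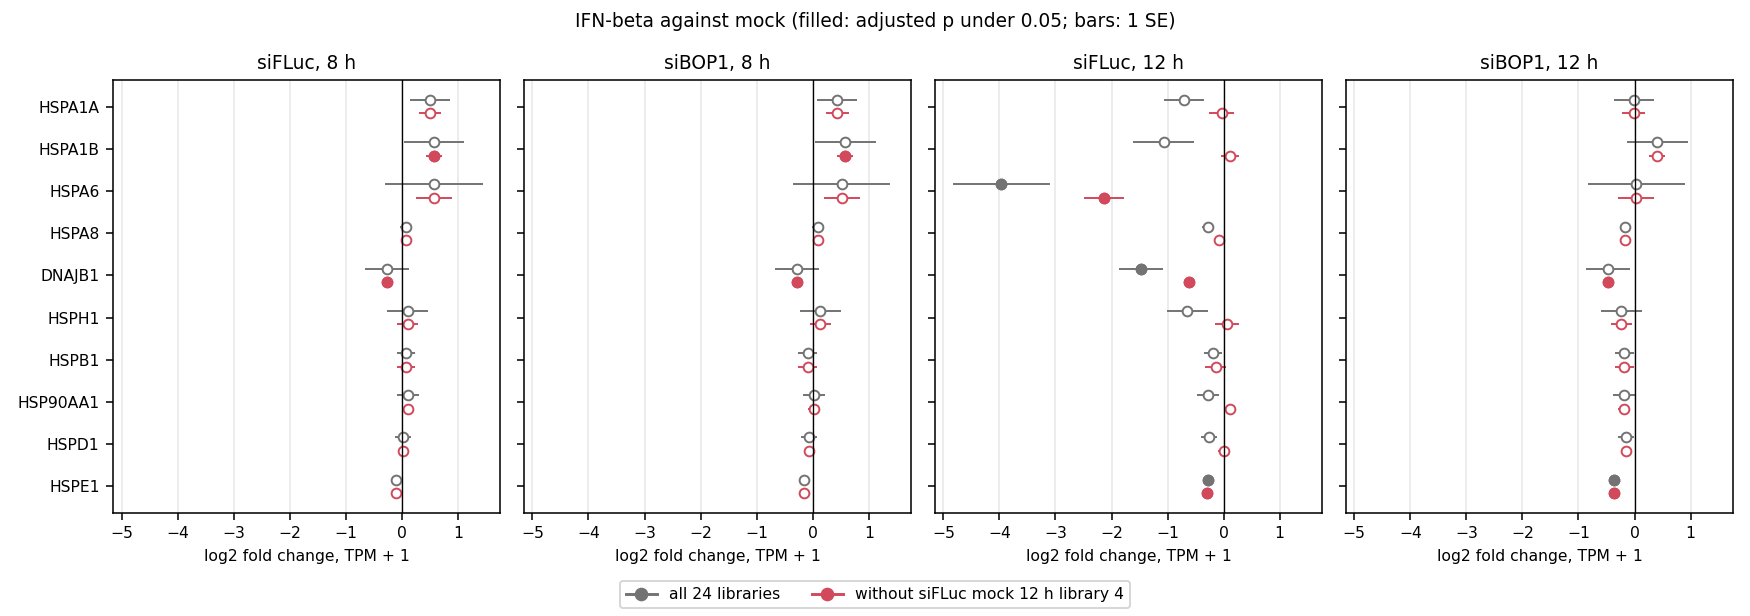
For each gene, the log2 fold change of IFN against mock is plotted with 1 SE by siRNA and time, grey for all 24 libraries and red without the siFLuc mock 12 h library 4, filled where the adjusted p was under 0.05. HSPA6 in siFLuc cells at 12 h moves from -3.97 to -2.14 between the fits, and HSPA1B at 8 h lies at 0.57 and 0.58.

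For BOP1 siRNA at 8 h no member was called with the 24 or the 23 libraries unless the block was added. By limma 0 of 10 passed with mock (2.16% of all genes) and with IFN treatment (2% of all genes), with 1 member at an unadjusted p under 0.05 in each, and 0 without the siFLuc mock 12 h library 4 (2.85% and 2.73% of all genes). HSPB1 was at 1059, 1019 and 774 TPM in siFLuc mock and 1346, 1386 and 1038 TPM in siBOP1 mock cells, higher at each of the 3 library numbers though the groups overlapped. Its change was 0.40 ± 0.17 (adjusted p 0.276, limma) and was called with the library number as a block (0.40 ± 0.09, adjusted p 0.01, limma), in a fit that called 8.49% of all genes. Under IFN HSPB1 was at 1116, 1025 and 853 against 1341, 1353 and 886 TPM (0.24 ± 0.17), called with the block only without the library that stood apart (0.24 ± 0.06, 10.6% of all genes).

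At 12 h HSPA1A, HSPA1B and HSPA8 had lower TPM in siBOP1 than in siFLuc libraries, although under IFN no member was called with all 24 libraries. HSPA1A was at 348, 375 and 1445 TPM in siFLuc mock and 190, 219 and 210.5 TPM in siBOP1 mock cells, and under IFN at 339, 338 and 380 against 205, 227 and 183 TPM. HSPA1B was at 117, 101 and 1277 against 60.2, 66.0 and 69.7 TPM in mock and at 109, 103 and 147 against 80.9, 100.2 and 80.2 TPM in IFN cells. HSPA8 was at 2183, 2240 and 3308 against 1825, 1843 and 1960 TPM in mock and at 2054, 2042 and 2169 against 1608, 1688 and 1734 TPM in IFN cells. The siFLuc and siBOP1 groups did not overlap for any of these 3 genes under either treatment. The share of all genes separated in this way was not counted, so the separation describes these values alone. HSPA6 overlapped under IFN, at 0.099, 0.162 and 0.297 TPM with siFLuc and 0.121, 0.098 and 0.277 TPM with siBOP1.

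HSPA6 was at 0.078, 0.104 and 0.235 TPM in siBOP1 mock cells, below the siFLuc values given above. In mock cells 3 of 10 members were called lower with all 24 libraries (1.6% of all genes): HSPA6 by -4.02 ± 0.87, HSPA1A by -1.47 ± 0.36 and HSPA8 by -0.43 ± 0.10. The library that stood apart is in the control group, and without it 2 were called (1.11% of all genes), HSPA6 (-2.20 ± 0.36) and HSPA1B (-0.73 ± 0.16). For HSPA6 the control was then libraries 1 and 2, at 9.15 and 1.68 TPM. Leaving out any 1 of the 3 siBOP1 mock libraries lowered the count to 0, and leaving out siFLuc library 1 or 2 raised it to 4. With the block HSPA1B was called as well in the 24 libraries (-1.91 ± 0.50, 7.66% of all genes), and in the 23 libraries HSPA1A (-0.80 ± 0.10), HSPA1B (-0.78 ± 0.13), HSPA6 (-2.26 ± 0.33) and HSPA8 (-0.27 ± 0.05) were (4.04% of all genes).

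Under IFN, where that library is in neither group, 0 of 10 were called by limma with all 24 libraries (0.66% of all genes), with 2 members at an unadjusted p under 0.05. HSPA8 was called without it (-0.32 ± 0.06, adjusted p 0.00726, limma), 1 of 10 against 0.881% of all genes, and with the block in 24 libraries (-0.32 ± 0.08, adjusted p 0.0446, limma), in a fit that called 3.77% of all genes. Without that library and with the block HSPA1A (-0.78 ± 0.08), HSPA1B (-0.44 ± 0.11) and HSPD1 (-0.21 ± 0.05) were called too (4.91% of all genes). The median over the members was -0.04 and -0.07 at 8 h (mock and IFN), and -0.49 and -0.17 at 12 h, the -0.49 being -0.07 without the library, beside medians over all genes between -0.01 and 0.03. Of the other lists, PFDN1 of prefoldin fell in all 4 siRNA comparisons (-0.41 to -0.64), the only gene of the 14 in its list, STIP1 fell at 12 h (-0.52 ± 0.11 and -0.53 ± 0.11), and HSP90B1 of the endoplasmic reticulum rose with mock treatment (0.37 ± 0.07 and 0.30 ± 0.07, 8 h and 12 h).

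Whether these effects differed between groups was tested by interactions. For siRNA by IFN, 0 of 10 members were called by limma at 8 h or 12 h (0% of all genes in both), with 0 and 1 members at an unadjusted p under 0.05. Time by IFN and time by siRNA, added after the values were seen, also called 0 of 10 members, with 0.00623% of all genes for time by IFN in siFLuc cells and 0% for the other 3, and 5, 0, 4 and 0 members at an unadjusted p under 0.05 (time by IFN with siFLuc and siBOP1, time by siRNA with mock and IFN). The largest of these, HSPA6 for time by IFN in siFLuc cells (-4.54 ± 1.23), was -2.78 ± 0.43 without the library that stood apart and with the block, and then passed (adjusted p 0.0264, limma, 0.075% of all genes). Its siFLuc mock 12 h side was then libraries 1 and 2, at 9.15 and 1.68 TPM. The higher HSPA1B with IFN at 8 h, and the lower HSPA1A with BOP1 siRNA at 12 h, were not shown to differ from the effects at the other time.

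Across the 24 libraries the members did not all vary together. HSPA1A and HSPA1B had a Pearson r of 0.98 of log2(TPM + 1), whereas HSPB1 and HSPA6 had 0.03 and HSPB1 and HSPH1 0.14. By the same measure, the 5 genes outside the members closest to the sum of HSPA1A and HSPA1B, among 10599 genes with a mean of at least 5 TPM, were HSP90AB1 (0.93), DNAJB6 (0.92), JMJD6 (0.90), STIP1 (0.88) and SRSF2 (0.87). Those closest to HSPD1 were FKBP4 (0.95), CCT4 (0.92), PTGES3 (0.89), HSPA4L (0.88) and TPM4 (0.87). Without the siFLuc mock 12 h library 4 the same 5 genes were closest to the HSPA1A and HSPA1B sum (0.88 to 0.94), and for HSPD1 STIP1 (0.91) and ASNS (0.91) took the places of PTGES3 and HSPA4L. These libraries share the step between 8 h and 12 h, and the values describe likeness of profiles.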

How the data were processed

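RNA-seq (stranded mRNA libraries, per the labels' protocols) was summarised by the authors as TPM per versioned Ensembl gene ID, and the deposited TPM of 24 libraries were used as given. The aligner, counter and genome build are not given in the sources used here. TPM keep no depth, so depth per sample is unknown and no counting interval is given. The 16 columns numbered 1 or 2 matched labelled replicates. The 8 numbered 4 matched a group only, since labels number replicates to 3. Nothing in the labels says that replicates came from separate cultures, so p-values measure the spread between these libraries. Symbols came from a gene ID table (60340 of 60609 rows) and promoter windows from RefSeq (GRCh38.p14).

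Genes reaching 1 TPM in 3 or more libraries (16062) were fitted as log2(TPM + 1) with limma 3.58.1 (R 4.3.3): 8 group means, intensity trend, all 24 libraries, adjustment over all genes, threshold 0.05. The fit was tested on simulated data. Same-numbered libraries deviated together in all 8 comparisons within a time (correlations 0.115 to 0.508 across genes), so a fit with the library number within time as a block is given where it changes a call within a time. Blocks lie within a time, so they pair no 8 h with a 12 h library and are not used for time effects. This pairing comes from the data and not from the labels. The members and gene lists were chosen with earlier results of these data known. Named by rule are all 10 members, of each other list at most the 4 largest changes past the threshold in a comparison, HSF1, HSF2, HSP90AB1, HSPA9, HSPA5, and the 5 genes most like 2 profiles (sum of HSPA1A and HSPA1B, HSPD1). Results without the siFLuc mock 12 h library 4 and the time interactions were added after seeing the data. Alternatives changed the pseudocount, filter, scaling, variance model, block and libraries used.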

Additional observations from a re-analysis of the deposited data

How the results depend on the processing

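Counts are members past the threshold, of 10. Over single left-out libraries they ran from 2 to 5 (IFN, siFLuc, 12 h), 1 to 1 (IFN, siBOP1, 12 h), 0 to 4 (siRNA, mock, 12 h), 0 to 6 (time, siFLuc mock), 3 to 4 (time, siFLuc IFN), 0 to 1 (time, siBOP1 mock) and 3 to 5 (time, siBOP1 IFN). They were 0 in the other 11. With the library number as a replicate block (the pairing) the IFN count at 12 h in siFLuc cells was 5, the siRNA counts were 1 (mock, 8 h) and 1 (IFN, 12 h), and the time counts were 2 (siFLuc mock), 8 (siFLuc IFN) and 5 (siBOP1 mock). Blocks lie within a time, so this fit leaves the spread between blocks out of the time test, and its time counts support no call. It called 1.88%, 4.16% and 1.57% of all genes lower in the same 3 time comparisons. With the block and without the siFLuc mock 12 h library 4, the counts were 3, 3 and 8 for IFN (siFLuc 8 h, siBOP1 8 h, siBOP1 12 h), 1, 1 and 4 for siRNA (mock 8 h, IFN 8 h, IFN 12 h), 9, 9, 7 and 10 for time (siFLuc mock, siFLuc IFN, siBOP1 mock, siBOP1 IFN) and 1 for time by IFN in siFLuc cells (HSPA6, -2.78). For time it called 1.5%, 4.91%, 2.31% and 3.89% of all genes lower, in the same order, and its time counts likewise support no call. For siRNA with mock at 8 h it called 6.96% of all genes higher and 3.01% lower. Without the siFLuc mock 12 h library 4 and with no block, the counts were 2 at 8 h with either siRNA and 2 at 12 h in siBOP1 cells (IFN), 1 (siRNA, IFN, 12 h), and 9 and 6 (time, siFLuc IFN and siBOP1 mock). With libraries 1 and 2 alone the counts were 3, 3 and 5 (IFN, siFLuc 8 h, siBOP1 8 h, siBOP1 12 h), 1, 1 and 2 (siRNA, mock 8 h, IFN 8 h, IFN 12 h), and 6, 8 and 6 (time, siFLuc mock, siFLuc IFN, siBOP1 mock). Fits of the compared groups by themselves gave 1, 2, 0 and 2 (IFN, siFLuc 8 h, siBOP1 8 h, siFLuc 12 h, siBOP1 12 h) and 0 (siRNA, mock, 12 h). Median-of-ratios rescaling gave 0 (IFN, siBOP1, 12 h) and 7 (time, siFLuc IFN), and quantile normalization gave 1 (IFN, siBOP1, 8 h). With no filter beyond a value above 0 the counts were 0 (siRNA, mock, 12 h) and 1 (time, siBOP1 mock), and without the variance trend 1 and 1. No share of all genes is given for left-out libraries, libraries 1 and 2 alone or groups fitted by themselves. The same holds for changes of scaling, filter or trend. Those counts show how calls depend on the fit and are no result about the members. DNAJB1 and HSP90AA1 turned direction between 8 h and 12 h in siFLuc mock cells, without a call in the 24 libraries. DNAJB1 was at 0.11, ran from -0.75 (without the 12 h library 4) to 0.59 (without the 12 h library 2) over single left-out libraries, and was at -0.74 with libraries 1 and 2 alone and -0.71 with the block and without library 4. HSP90AA1 was at -0.18 and ran from -0.57 (without library 4) to 0.021 (without library 2). The cause of these changes was not tested. A pseudocount of 0.1 kept the direction and the side of the threshold of all 43 single-gene changes followed, and summing HSPA1A and HSPA1B did so for all 36 it could give. With TPM, 3 libraries a group limit the precision.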
